A study of Mus musculus with 2 samples.

Results

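Spots of the normal chow diet (NCD) liver section that lay at the pericentral and periportal ends of the lobule were compared gene by gene. The members were selected on the measured UMIs of 8 genes. Each spot over tissue with 3000 or more unique molecular identifiers (UMIs, 1 for each captured RNA molecule) received a score. The score was the log2 of the UMIs of Cyp2e1, Cyp1a2, Oat and Glul plus 1, divided by the UMIs of Cyp2f2, Hal, Sds and Gls2 plus 1. Of 3692 spots over tissue, 2107 reached the minimum of UMIs and were scored. The 20% with the highest scores were taken as pericentral and the 20% with the lowest as periportal, which gave 421 spots in each zone and 842 spots in both, or 22.8% of the spots over tissue. Both sections of the series together held 7286 spots over tissue. The score itself chose the zones from the same UMIs that were then compared, so every ratio below describes this section and none is a test.

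The study profiled liver sections of 10 µm with 10x Visium, in which barcoded capture spots under the tissue record where each transcript was found. A spot can hold several cells of different types. The NCD section came from 1 male C57BL/6J mouse that had been bought at 5 weeks of age, had been kept on NCD for 14 weeks and had then been given distilled water by mouth daily for 8 weeks. The other section came from 1 mouse of the same strain and sex that received a high-fat diet (HFD) for 14 weeks and the same water for 8 weeks. It is used here only to set its values beside those of the NCD section. With 1 mouse and 1 section per diet, no p-value or replicate error can be given, and animal, slide, depth and diet cannot be told apart. All 95% intervals below are exact and cover counting error only. The labels name a hematopoietic stem cell as the cell line and an immune cell as the cell type, but both zones carried hepatocyte transcripts at high levels. Alb reached 39286 UMIs per 1000000 UMIs of the zone (CPM) in pericentral and 79310 CPM in periportal spots, whereas the stem cell genes Kit (21 and 6 UMIs) and Cd34 (4 and 8 UMIs) were barely counted.

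The liver lobule is the repeating unit of the organ. Blood enters it at the portal tracts, flows along plates of hepatocytes and leaves through the central vein, so that hepatocytes along this path meet falling levels of oxygen, nutrients and hormones. Wnt signals from the endothelium of the central vein keep hepatocytes there in a program of glutamine synthesis, bile acid synthesis and drug metabolism, while hepatocytes near the portal tract are known for urea formation, amino acid breakdown, gluconeogenesis and the secretion of plasma proteins.

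The score ran from -3.0 to 8.55 over the scored spots, with a median of 3.26. The last spot taken into the pericentral zone had a score of 5.0, and 5 spots tied at this value, of which the 2 first in the file were taken. The last periportal spot had a score of 0.76 and the next one outside it 0.78. The median score was 5.58 in pericentral and -0.13 in periportal spots. The median periportal spot thus still held 17 UMIs of the pericentral score genes beside 20 UMIs of the periportal ones, whereas the median pericentral spot held 201 and 3. In 69 pericentral spots none of the periportal score genes was counted. Scores were also made from separate genes, Cyp2e1 and Cyp1a2 over Cyp2f2 and Hal against Oat and Glul over Sds and Gls2. They correlated across the scored spots with r = 0.83, and with r = 0.73 after each spot was drawn down to 3000 UMIs. These spots share 1 section, so the correlation is a description.

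**Figure D1:**
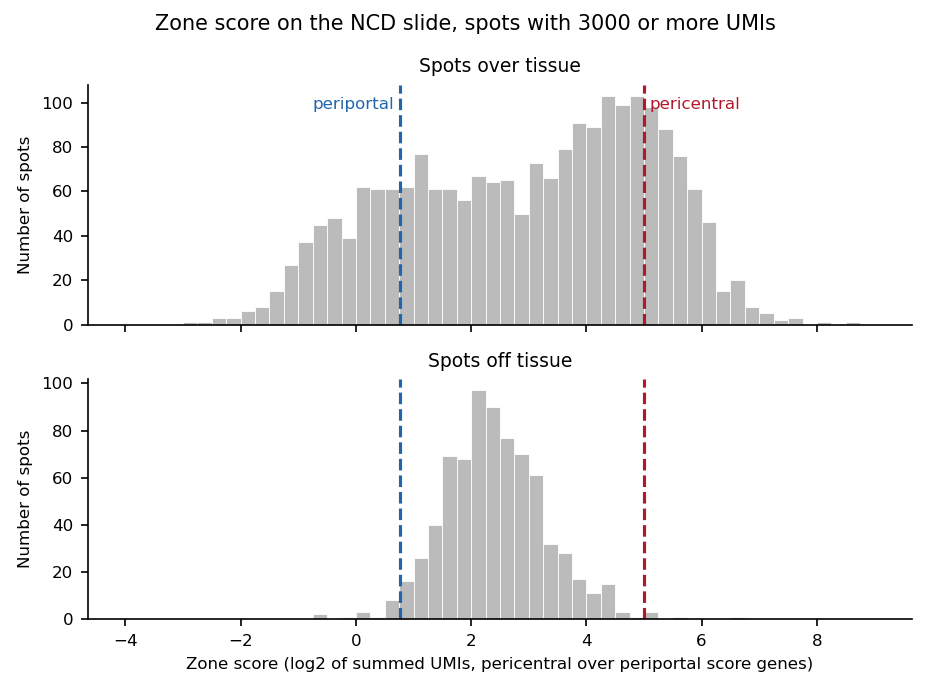
Number of spots (y axis) by zone score (x axis, log2) for scored spots over tissue and for spots off the tissue of the same slide with 3000 or more UMIs; dashed lines mark the edges of the zones at 0.76 and 5.0. Scored tissue spots spread from -3.0 to 8.55, while spots off the tissue gather between the edges.

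The score genes are given as a description, because they made the zones. Glul, glutamine synthetase, was at 1912 CPM in pericentral and 117 CPM in periportal spots, a log2 ratio of 4.03. Cyp2e1, the cytochrome P450 that oxidizes ethanol, was at 12548 and 1825 CPM. Glul was the more restricted of the pair along the score. The scored spots were also split by score into 10 groups of about equal size, with group 1 most periportal and group 10 most pericentral. Glul stayed at or below 324 CPM in groups 1 to 6 and reached 2379 CPM in group 10, whereas Cyp2e1 climbed from each group to the next, from 1257 to 13116 CPM. Of the periportal score genes, Cyp2f2 was at 144 CPM in pericentral and 1120 CPM in periportal spots and Hal, histidine ammonia-lyase, at 59.3 and 440 CPM. The 4 periportal genes had log2 ratios from -3.06 (Sds) to -2.82 (Gls2).

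Depth differed between the zones as well, and transcripts were also counted off the tissue. The pericentral spots held 5261810 UMIs in all with a median of 10105 per spot, the periportal spots 4468681 UMIs with a median of 7557, and the middle 20% of spots had the highest median, 13031.5. The score correlated weakly with the log2 UMIs of a spot (r = 0.11). Off the tissue, 741 of 1300 spots also had 3000 or more UMIs, where 2107 of 3692 spots over tissue did. These 741 spots had a median of 5309 UMIs and a median score of 2.37. The 1585 spots over tissue below the minimum had a median of 919 UMIs. Of the 741 spots, 5 (0.675%) had scores as high as the pericentral edge and 16 (2.16%) scores as low as the periportal edge. The Cyp2e1 level of the 741 spots was 6497 CPM, between those of the zones. The part of spread transcripts in the zone ratios was not tested. Visium slides use a fixed set of barcodes, and the tables of both sections shared 3173 of them.

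Across 6834 genes with at least 200 UMIs over the scored spots, score genes left out, 777 (11.4%) were at least 1.5-fold higher in pericentral spots and 215 (3.15%) at least 1.5-fold higher in periportal spots. For 723 and 204 of them the counting interval of the ratio lay wholly on that side of equality. At least 2-fold, 178 genes were higher in pericentral and 97 in periportal spots. Pericentral spots therefore had the longer list of genes, but this split depends on what the CPM are relative to. The median log2 ratio of all tested genes was 0.16. When the mitochondrial and the 20 most abundant genes, 26 genes with 27.6% of the UMIs, were left out of the total, every log2 ratio fell by 0.12. There were then 467 pericentral and 320 periportal genes past 1.5-fold, so that 59.3% of such genes were pericentral in place of 78.3%.

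**Figure D2:**
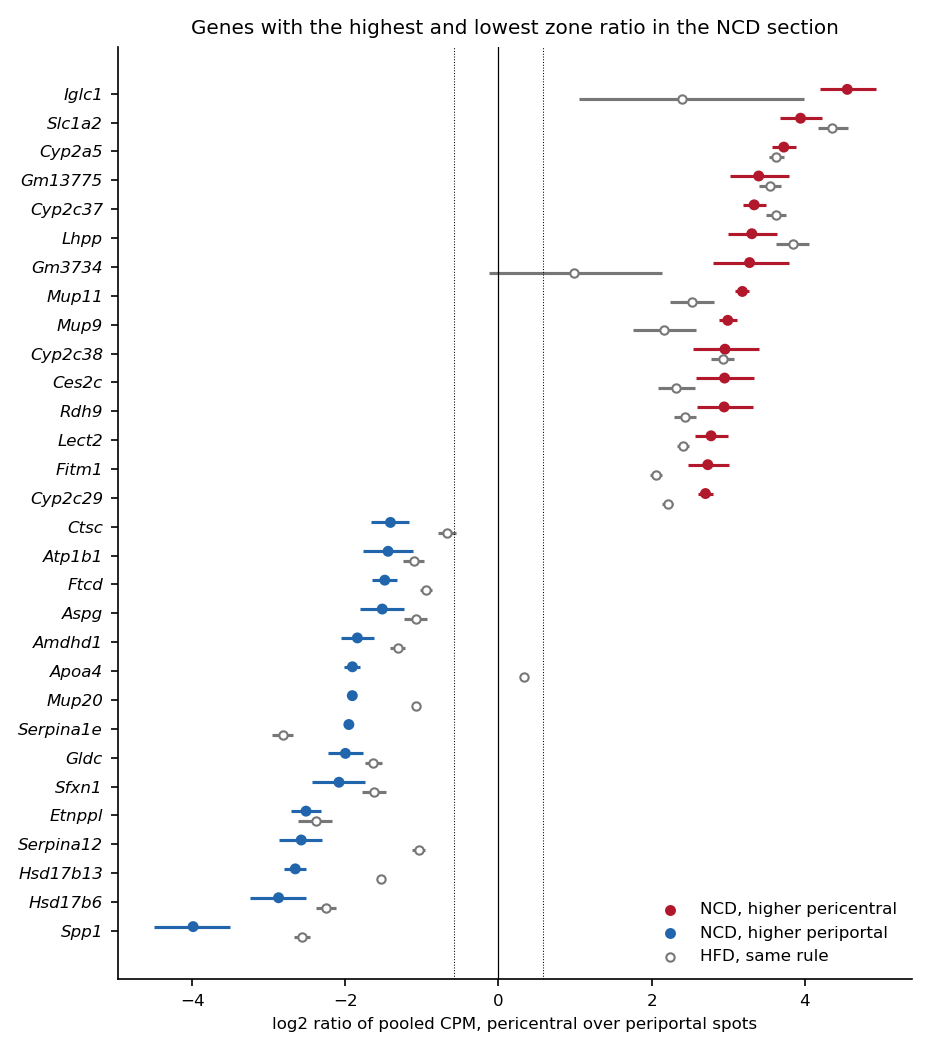
Log2 ratio of pericentral to periportal CPM (x axis) for the 15 top and 15 bottom genes by this ratio, each with 1000 or more UMIs over the scored spots; filled points with 95% counting intervals are the NCD section, open points the HFD section, and dotted lines mark 1.5-fold. In the NCD section the ratios ran from 4.56 (Iglc1) to -3.99 (Spp1), and Apoa4 lies on opposite sides of 0 in the sections.

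The genes highest in pericentral spots included the ammonium and glutamate handling program of the last hepatocytes before the central vein. Slc1a2, a glutamate transporter (chr2:102658659-102790784, GRCm38, plus strand), ranged from 0 over a median of 313 to 1664 CPM in single pericentral spots and from 0 over a median of 0 to 482 CPM in single periportal spots. The ranges overlap, but only 0.475% of periportal spots lay above the median pericentral spot. Pooled, Slc1a2 was at 390 CPM (95% interval 373 to 407) and 25.3 CPM (20.8 to 30.4), or 15.4-fold higher. After every spot was drawn down to 3000 UMIs, the transcript was found in 55.3% of pericentral (50.5 to 60.2) and 6.89% of periportal spots (4.66 to 9.74). Rhbg, an ammonium transporter, was at 63.3 and 3.36 CPM. Lhpp, a histidine phosphatase (chr7:132610638-132706420, plus strand), was at 202 and 20.4 CPM, and its gene lies 34.2 kb from that of the score gene Oat.

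Of 13 genes listed as pericentral Wnt targets, 6 reached the gene minimum, and all 6 were past 1.5-fold in pericentral spots, with a median log2 ratio of 2.95 beside 0.16 for all genes. They were Rhbg (4.24), Slc1a2 (3.95), Lhpp (3.31), the membrane ubiquitin ligase Rnf43 (2.59), the transcriptional repressor Tbx3 (2.41) and the secreted Wnt inhibitor Notum (2.15). The members below the gene minimum included the general Wnt target Axin2, with 50 UMIs in pericentral and 3 in periportal spots, and the R-spondin receptor Lgr5, with 37 and 2. Znrf3, with 39 and 24 UMIs, had the smallest ratio of the list, 0.46 (-0.31 to 1.26).

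The second group was made of drug-metabolizing cytochromes. Of 24 measured enzymes of the CYP1 to CYP3 families and their reductase, score genes left out, 13 were past 1.5-fold in pericentral and 2 in periportal spots. Of all genes, 11.4% and 3.15% were. The median log2 ratio of the list was 1.14. Cyp2a5, which oxidizes coumarin and nicotine (chr7:26835305-26843548, plus strand), ranged from 0 over 975 to 3365 CPM in single pericentral spots and from 0 over 0 to 558 CPM in single periportal spots. No periportal spot lay above the pericentral median. Pooled, Cyp2a5 was 13.2-fold higher in pericentral spots (log2 3.73, 3.57 to 3.89). Cyp2c37 was at 911 and 89.96 CPM and Cyp2c38 at 90.5 and 11.6 CPM. Cyp2c29 ran from 0 over 1335 to 3480 CPM in single pericentral and from 0 over 184 to 1111 CPM in single periportal spots, a pooled log2 ratio of 2.70. Cyp3a11, the main CYP3A enzyme of mouse liver, was at 6930 and 2265 CPM. The reductase Por, which passes electrons to all of these enzymes, had a log2 ratio of 1.29. The periportal exceptions were Cyp2a12 (-0.95) and Cyp2u1 (-1.11).

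Neighboring genes could lie on opposite sides. Of 10 tested Cyp2c genes on chromosome 19, 8 were past 1.5-fold in pericentral spots, where 11.4% of all genes were. They ran from Cyp2c40 (4.36, 121 and 5 UMIs) to Cyp2c68 (1.19). Cyp2c70 (0.41) and Cyp2c23 (-0.07), which lies apart from the others, were not past it. On chromosome 7, the gap between pericentral Cyp2a5 and periportal Cyp2f2 was 276 kb, with Cyp2a12 between them on the periportal side. On chromosome 10, Rdh9, a retinol dehydrogenase family member (2.95, 124 and 16.1 CPM), was pericentral and lay 198 kb from Hsd17b6, a steroid dehydrogenase (-2.87, 14.1 and 103 CPM), which was periportal, as was the score gene Gls2 at a gap of 402 kb from Rdh9. Reads of near-identical members of the Cyp2c, Mup and Serpina1 families may be split between copies, so single members of these families are uncertain.

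The major urinary proteins (Mup), pheromone carriers made mainly by the male liver, had members on both sides of the lobule. The count tables hold 22 of these genes, and 13 were tested. Among those tested, 6 were past 1.5-fold in pericentral spots, 2 in periportal spots and 5 in neither. The shares of all genes were 11.4% pericentral and 3.15% periportal. Mup11 ranged from 168 over 1950 to 9074 CPM in single pericentral and from 0 over 202 to 936 CPM in single periportal spots. Mup20, the attractant known as darcin, went the other way. It ranged from 497 over 3367 to 7340 CPM in pericentral and from 2353 over 11142 to 33074 CPM in periportal spots. Pooled log2 ratios were 3.19 (3.10 to 3.28) for Mup11, 2.995 for Mup9, -0.76 for Mup3 and -1.91 (-1.93 to -1.88) for Mup20. The transcript Gm13775, which lies in the same cluster 249 kb from Mup20, was pericentral (3.40, 146 and 13.9 CPM). Mup19, which lies closer to Gm13775 and was below the gene minimum, had 16 UMIs in pericentral and 0 in periportal spots.

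The start regions of Mup9, Mup11 and Mup3 are shown because these genes of 1 cluster lie on opposite sides of the lobule. The windows are the 250 bases before the RefSeq start site on build GRCm38.p6, minus strand, at chr4:60421953-60422202, chr4:60662396-60662645 and chr4:62087318-62087567. Capitals mark the longest run of letters that all 3 windows share, 22 bases. The longest run shared by the pericentral Mup9 and Mup11 alone was 169 bases.
Mup9: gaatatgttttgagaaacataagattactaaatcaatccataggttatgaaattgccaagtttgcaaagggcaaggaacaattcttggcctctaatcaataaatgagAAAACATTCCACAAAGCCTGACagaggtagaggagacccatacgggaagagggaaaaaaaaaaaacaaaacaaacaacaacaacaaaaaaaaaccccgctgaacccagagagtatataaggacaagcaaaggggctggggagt
Mup11: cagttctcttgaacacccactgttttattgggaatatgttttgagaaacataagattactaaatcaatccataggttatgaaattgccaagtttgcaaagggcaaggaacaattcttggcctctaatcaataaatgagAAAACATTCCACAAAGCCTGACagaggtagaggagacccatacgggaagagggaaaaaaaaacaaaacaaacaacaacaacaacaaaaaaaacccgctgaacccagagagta
Mup3: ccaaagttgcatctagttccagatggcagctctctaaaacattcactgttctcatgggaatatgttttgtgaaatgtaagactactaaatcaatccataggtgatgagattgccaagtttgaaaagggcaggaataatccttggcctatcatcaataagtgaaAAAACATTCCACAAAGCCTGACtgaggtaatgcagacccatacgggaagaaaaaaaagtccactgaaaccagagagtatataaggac

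Other pericentral leaders had various roles. Ces2c, a carboxylesterase, was at 114 and 14.8 CPM, and Lect2, a secreted hepatokine, at 314 and 45.9 CPM. Fitm1, which takes part in lipid droplet formation, was at 198 and 29.8 CPM, and the long noncoding RNA Gm3734 at 84.8 and 8.73 CPM. The highest ratio of all, that of the immunoglobulin light chain gene Iglc1 (4.56, 353 and 14.99 CPM), rested on few spots. Of its UMIs, 86.5% lay in 5 spots, its transcript was found in 9.74% of pericentral and 9.50% of periportal spots, and its log2 ratio was -0.08 without the 5 spots of each zone with the most Iglc1. For Slc1a2 the 5 richest spots held 3.25%, and the ratio without them was 4.09.

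**Figure D3:**
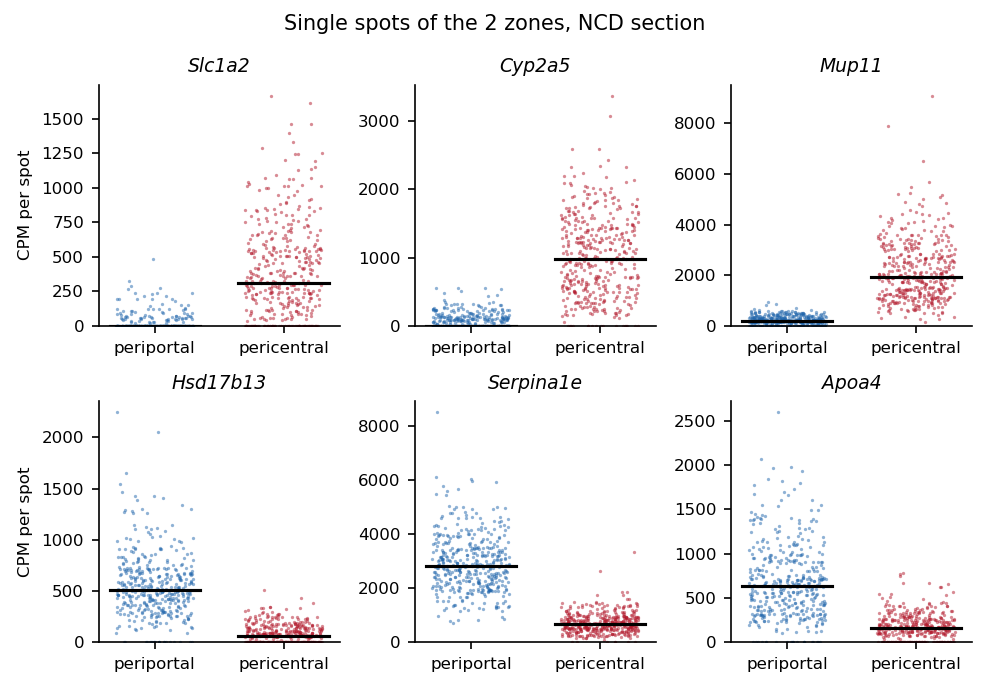
CPM in single spots (y axis) of the pericentral and periportal zones (421 spots each) for Slc1a2, Cyp2a5, Mup11, Hsd17b13, Serpina1e and Apoa4; each point is 1 spot and the black bar is the zone's median. The medians differ in every panel, from 313 against 0 CPM for Slc1a2 to 163 against 631 CPM for Apoa4, while the ranges overlap.

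The genes highest in periportal spots had various roles. Spp1 (osteopontin, made in normal liver mainly by bile duct cells) had the lowest ratio, -3.99 (-4.50 to -3.51), with 7.22 and 115 CPM. Its median was 0 in both zones, its transcript was found in 8.31% of pericentral and 32.5% of periportal spots, and 1 periportal spot reached 5364 CPM. Hsd17b13, a lipid droplet enzyme of hepatocytes (chr5:103955440-103977410, minus strand), ranged from 0 over 65.7 to 508 CPM in single pericentral and from 0 over 515 to 2244 CPM in single periportal spots. No pericentral spot lay above the periportal median, and the pooled level was 6.29-fold higher in periportal spots. Its relatives differed. Of 8 tested Hsd17b genes, Hsd17b6 and Hsd17b13 were periportal past 1.5-fold, where 3.15% of all genes were. Another 3 were pericentral past 1.5-fold, where 11.4% of all genes were, namely Hsd17b11 (0.83), Hsd17b10 (0.81) and Hsd17b7 (0.61).

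The breakdown of histidine was periportal at each of the measured steps after the score gene Hal. Uroc1, urocanate hydratase, was at 72.2 and 192 CPM (log2 -1.41). Amdhd1, which acts next in the pathway, was at 45.8 and 164 CPM (-1.84), and its gene lies 4.03 kb from Hal. Ftcd, which takes the formimino group over to folate, was at 80.8 and 226 CPM (-1.48). The serine and glycine genes lay on the same side. Sdsl, a relative of the score gene Sds, was at 8.17 and 45.0 CPM, the glycine cleavage enzyme Gldc at 39.1 and 156 CPM, and the mitochondrial serine carrier Sfxn1 at 17.5 and 74.1 CPM. Etnppl, which breaks down phosphoethanolamine, was at 51.3 and 293 CPM. The list of amino acid breakdown genes held members of both sides. Of 51 measured members 7 were past 1.5-fold in periportal spots, where 3.15% of all genes were, and 6 in pericentral spots, where 11.4% were, and the median log2 ratio was 0.11, or -0.01 without the abundant genes in the total. The pericentral members were Csad (1.603), which makes the taurine precursor, Prodh (1.26) and Aldh4a1 (0.65), both of proline breakdown, Agxt2 (0.91), Hibadh (0.79) and Hpd (0.77), of tyrosine breakdown.

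Secreted proteins of the serpin family were periportal for a few members. Serpina1e, a member of the alpha-1-antitrypsin group (chr12:103946931-103958975, minus strand), ranged from 0 over 690 to 3336 CPM in single pericentral and from 723 over 2837 to 8495 CPM in single periportal spots. Its log2 ratio was -1.95 (-2.01 to -1.90), whereas its near-identical neighbors Serpina1a (-0.38), Serpina1b (-0.37), Serpina1c (-0.37) and Serpina1d (-0.15) stayed below 1.5-fold. Serpina12, the adipokine vaspin (-2.58, 24.1 and 144 CPM), lies 69.8 kb from Serpina1e. Serpina7, the thyroxine-binding globulin on the X chromosome, was pericentral (3.01, 41.4 and 5.1 CPM), and so was Serpina6, the corticosteroid-binding globulin (0.92). Of 14 tested Serpina genes, 2 were past 1.5-fold in each zone and 10 in neither, beside 11.4% pericentral and 3.15% periportal of all genes.

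The start regions of Serpina1e and Serpina1a are shown because these copies differ in their zone ratio. The windows lie on GRCm38.p6, minus strand, at chr12:103956898-103957147 and chr12:103863620-103863869, and capitals mark the longest run that both share, 63 bases. That of Serpina1e lies inside the GENCODE span of the gene, which reaches to 103958975.
Serpina1e: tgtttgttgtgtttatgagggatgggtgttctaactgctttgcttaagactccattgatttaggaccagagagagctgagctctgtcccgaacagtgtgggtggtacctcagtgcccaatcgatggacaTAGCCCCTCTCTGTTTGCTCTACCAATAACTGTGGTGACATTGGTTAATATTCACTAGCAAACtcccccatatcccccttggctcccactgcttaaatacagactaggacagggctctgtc
Serpina1a: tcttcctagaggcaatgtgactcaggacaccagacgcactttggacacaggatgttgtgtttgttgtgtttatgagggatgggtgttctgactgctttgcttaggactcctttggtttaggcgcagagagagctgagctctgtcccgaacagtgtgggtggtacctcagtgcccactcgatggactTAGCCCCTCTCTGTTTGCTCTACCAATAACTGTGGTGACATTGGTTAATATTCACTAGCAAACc

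Letters known from 3 regulators of zoned genes were counted in the RefSeq windows of 250 bases, on both strands. The TCF/LEF letters CTTTGAT, which Wnt signaling acts through, were in 3.21% of all 32851 windows and in 2.30% of the windows of tested genes. They were in 9 of 184 windows (4.89%) of genes past 2-fold in pericentral spots and in 2 of 94 (2.13%) of genes past 2-fold in periportal spots. The HNF4 letters AAAGTCCA were in 1.01% of all windows, in 6 (3.26%) of the pericentral and in 2 (2.13%) of the periportal ones. The AHR letters GCGTG were in 28.2% of all windows and in 45.1% of those of tested genes, against 31.5% and 29.8% of the pericentral and periportal ones. These shares were not tested, and a match of letters is not a binding site. Of 48 genes that led a zone, the middle or the score, 39 had a window, and 5 of them held CTTTGAT, namely Hal, Slc1a2, Lect2, Cyp2c29 and Serpina12.

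The windows of pericentral Slc1a2 (chr2:102706188-102706437, plus strand) and Cyp2c29 (chr19:39286835-39287084, plus strand) and of periportal Serpina12 (chr12:104044444-104044693, minus strand) on GRCm38.p6 show these letters on both sides of the lobule. Capitals mark them as they read on the gene's strand, since in all 3 the match was on the other strand. The matches start at positions -207, -119 and -172 from the start site. The windows of Slc1a2 and Cyp2c29 lie inside the GENCODE spans of these genes, which begin at chr2:102658659 and chr19:39269405.
Slc1a2: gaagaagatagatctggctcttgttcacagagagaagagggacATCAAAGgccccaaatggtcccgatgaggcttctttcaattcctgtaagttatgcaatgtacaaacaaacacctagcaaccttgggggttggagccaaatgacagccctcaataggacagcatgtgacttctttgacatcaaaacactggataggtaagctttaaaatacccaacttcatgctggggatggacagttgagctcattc
Cyp2c29: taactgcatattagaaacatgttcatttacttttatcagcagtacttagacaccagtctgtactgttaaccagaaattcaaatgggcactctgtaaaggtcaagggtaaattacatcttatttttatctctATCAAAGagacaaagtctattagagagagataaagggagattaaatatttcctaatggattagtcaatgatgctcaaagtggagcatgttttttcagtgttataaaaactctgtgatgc
Serpina12: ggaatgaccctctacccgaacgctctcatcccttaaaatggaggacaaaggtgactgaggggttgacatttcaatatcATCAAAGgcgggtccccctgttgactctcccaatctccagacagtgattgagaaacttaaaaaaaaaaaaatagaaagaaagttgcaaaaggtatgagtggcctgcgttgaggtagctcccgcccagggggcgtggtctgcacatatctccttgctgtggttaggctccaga

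Enzymes of the urea cycle were periportal, while a few genes of ammonia and urea transport were pericentral. Arg1, which releases urea, was at 734 and 1606 CPM (-1.13, -1.19 to -1.07), Asl at 562 and 1034 CPM (-0.88) and Ass1 at 1552 and 2757 CPM (-0.83). Cps1, the entry enzyme, was at 1277 and 1902 CPM (-0.57), and Otc at 363 and 472 CPM (-0.38), both short of 1.5-fold. Of 16 measured genes of the urea cycle and ammonia handling, 3 were past 1.5-fold in periportal spots, where 3.15% of all genes were. In pericentral spots, where 11.4% were, 4 passed. These were Rhbg, Slc1a2, the urea and glycerol channel Aqp9 (1.26) and the mitochondrial carbonic anhydrase Car5a (0.71). The median of the list was -0.02. Without the abundant genes in the total, the periportal count was 5 and the pericentral count 4.

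Genes of glucose and lipid synthesis past 1.5-fold lay on both sides, beside 11.4% pericentral and 3.15% periportal of all genes. Pck1, the first committed enzyme of gluconeogenesis, was at 1270 and 2265 CPM (-0.83), the only one of 14 measured gluconeogenesis genes past 1.5-fold, with Fbp1 (-0.57), which acts later in the pathway, just short of it. The median of that list was -0.15, and 3 members passed without the abundant genes in the total. Of 23 genes of glycolysis control and lipogenesis, 2 were past 1.5-fold in periportal spots, Acly (-1.08), which makes cytosolic acetyl-CoA, and Scd1 (-0.60), which desaturates fatty acids, and 3 in pericentral spots, among them Pgd (0.84) and Me1 (0.70), which both supply NADPH. Their median was 0.04, and -0.08 without the abundant genes. Of 22 cholesterol synthesis genes, 5 were past 1.5-fold in periportal spots, led by Sqle (-1.66, 10.3 and 32.4 CPM) and Lss (-1.05), and Hsd17b7 (0.61) in pericentral spots, with a median of -0.16.

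Genes of bile acid synthesis and transport leaned to pericentral spots. Cyp7a1, the rate-limiting enzyme of the synthesis, was at 76.4 and 16.3 CPM (2.23, 1.86 to 2.61), and Cyp27a1, which starts the alternative route, at 402 and 182 CPM (1.14). The uptake carrier Slco1b2 was at 1194 and 305 CPM (1.97) and the steroid dehydrogenase Akr1c6 at 2183 and 580 CPM (1.91). In all, 11 of 25 members were past 1.5-fold in pericentral spots, where 11.4% of all genes were, with a median of 0.33. In periportal spots, where 3.15% of all genes were, 1 member passed, the oxysterol hydroxylase Cyp39a1 (-1.65, 6.65 and 20.8 CPM). Phase II enzymes, which conjugate drugs and hormones, leaned the same way, with 16 of 33 past 1.5-fold in pericentral spots, 2 in periportal spots and a median of 0.57. Without the abundant genes in the total, 9 genes of bile acid synthesis and transport and 13 phase II enzymes passed in pericentral spots. Gstm2 (2.45) and Gstm3 (2.34), glutathione transferases, had high ratios, whereas Gstp1 was periportal (-1.08, 223 and 472 CPM).

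Of 39 genes of fatty acid oxidation and ketogenesis, 8 were past 1.5-fold in pericentral spots and 0 in periportal spots, beside 11.4% and 3.15% of all genes. The median of the list was 0.34, beside 0.16 for all genes. The omega-hydroxylases Cyp4a12b (1.71) and Cyp4a12a (1.26) and the acyl-CoA thioesterase Acot1 (1.41, 214 and 80.3 CPM) were highest. Peroxisomal Acaa1b was at 2026 and 1137 CPM (0.83). Without the abundant genes in the total, 5 members of the list and 467 of all 6834 genes passed in pericentral spots.

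**Figure D4:**
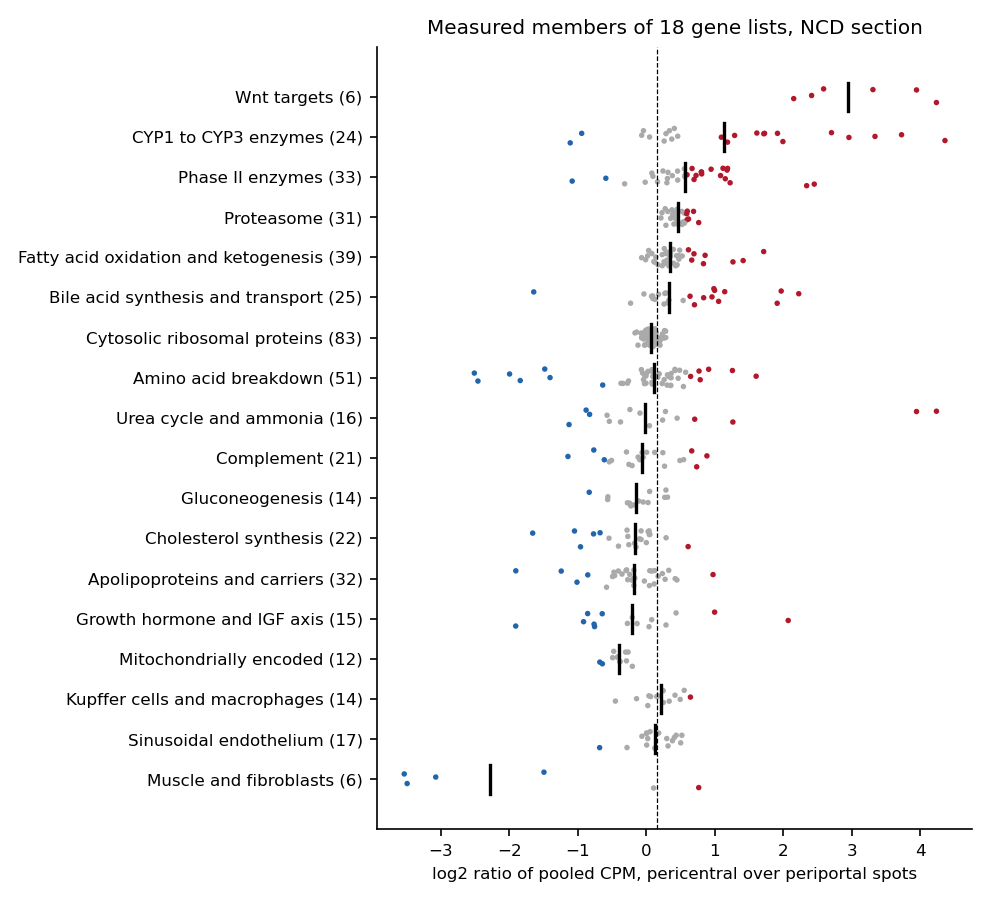
Log2 ratio of pericentral to periportal CPM (x axis) for the measured members of 18 gene lists (rows); each point is 1 gene, black bars are list medians and the dashed line is the median of all tested genes, 0.16. Wnt targets (median 2.95) and cytochromes (1.14) lie to the right, and mitochondrially encoded genes (-0.40) to the left.

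Plasma protein genes past 1.5-fold lay on both sides of the lobule, beside 11.4% pericentral and 3.15% periportal of all genes. Alb was 2.02-fold higher in periportal spots (-1.01), Apoc2, the cofactor of lipoprotein lipase, was at 300 and 710 CPM (-1.24), and the heme carrier Hpx had a log2 ratio of -0.86. Apoa4, an apolipoprotein (chr9:46240696-46243459, plus strand), ranged from 0 over 163 to 777 CPM in single pericentral and from 0 over 631 to 2592 CPM in single periportal spots, and was 3.75-fold higher in periportal spots. Of 32 apolipoproteins and carriers 4 were past 1.5-fold in periportal spots and 1, the phospholipid transfer protein Pltp (0.97), in pericentral spots. Apoe leaned to pericentral spots by 0.42. Of 21 complement genes, C9 (-1.15), C8a (-0.77) and Cfi (-0.61) were periportal past 1.5-fold, and C6 (0.88), Fcna (0.73) and C4bp (0.66) pericentral, so that members of the same terminal complex lay on both sides. Of 37 coagulation genes and protease inhibitors, Serpina1e passed in periportal spots and 3 in pericentral spots, Pros1 (1.02), Serpina6 (0.92) and F5 (0.60). Both counts are shares below those of all genes. Without the abundant genes in the total, the periportal counts were 7 apolipoproteins and carriers, 5 complement genes and 1 of the coagulation list. The pericentral counts were then 1, 2 and 2.

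Stress and hormone genes past 1.5-fold were split between the sides, beside 11.4% pericentral and 3.15% periportal of all genes. The metallothioneins Mt1 (180 and 473 CPM, -1.40) and Mt2 (-1.27), which bind zinc and copper, were periportal, while the acute phase genes Orm2 (1.64), Saa3 (1.47) and Saa2 (0.95) were pericentral, and 6 and 5 of the 21 measured genes were past 1.5-fold in pericentral and periportal spots. Of 15 genes of the growth hormone and IGF axis, 6 were past 1.5-fold in periportal spots, among them Mup20 and Mup3, the binding proteins Igfbp3 (-0.92) and Igfbp2 (-0.76), the signaling inhibitor Cish (-0.86) and Igf1 itself (496 and 776 CPM, -0.65). The steroid enzyme Hsd3b5 (2.07) and the binding protein Igfbp1 (1.00) were past it in pericentral spots. Among 25 nuclear receptors and transcription factors, 4 were pericentral past 1.5-fold, Tbx3, the xenobiotic receptors Ahr (1.97, 34.2 and 8.73 CPM) and Nr1i3 (1.11), and Foxa1 (0.89), and 0 periportal. The median of this list was 0.15, near the 0.16 of all genes. Without the abundant genes in the total, 2 of its members passed in periportal spots. Egln3 (1.69), an oxygen sensor enzyme induced by hypoxia, and Ndrg1 (0.62) were past 1.5-fold among 7 measured hypoxia genes.

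Proteasome and mitochondrially encoded genes were shifted in opposite directions, each as a group. All 31 proteasome subunits were higher in pericentral spots, with log2 ratios from 0.21 (Psma4) to 0.76 (Psma1) and a median of 0.46. All tested genes had a median of 0.16 and a 25th percentile of -0.045, so most genes were also above 0. Past 1.5-fold in pericentral spots, where 11.4% of all genes were, there were 6 subunits, or 1 without the abundant genes in the total. All 12 measured mitochondrially encoded genes were lower in pericentral spots, with a summed level of 73494 and 96677 CPM and a median of -0.40. The share of mitochondrial transcripts also serves as a sign of RNA quality, and its part in the other ratios was not tested beyond the change of total given above. The 89 nuclear genes of oxidative phosphorylation had a median of -0.04, with 2 past 1.5-fold in periportal spots, where 3.15% of all genes were. The 83 cytosolic ribosomal protein genes had a median of 0.07, or -0.04 without the abundant genes, with 0 past 1.5-fold.

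Along the score, pericentral genes differed in where their level changed. Among 2434 genes with 1000 or more UMIs, 1123 had their highest level in the 20% of spots with the highest scores, and 421, 251, 244 and 395 in the next lower groups of 20%, in that order. Slc1a2 stayed between 22.8 and 67.2 CPM in groups 1 to 6 and climbed from 138 to 461 CPM in groups 7 to 10, a course like that of Glul. Cyp2c29 climbed from each group to the next, from 151 to 1405 CPM. Mup11 climbed from 210 to 2113 CPM by group 8 and then stayed level, with 2185 and 2167 CPM in groups 9 and 10. On the periportal side, Hsd17b13 declined from each group to the next, from 598 to 78.8 CPM. Spp1 was at 137 CPM in group 1 and at 8.36 CPM in group 6. Arg1 held between 1443 and 1666 CPM in groups 1 to 5 and was at 630 CPM in group 10, and Cps1 was highest in group 5, at 2161 CPM.

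**Figure D5:**
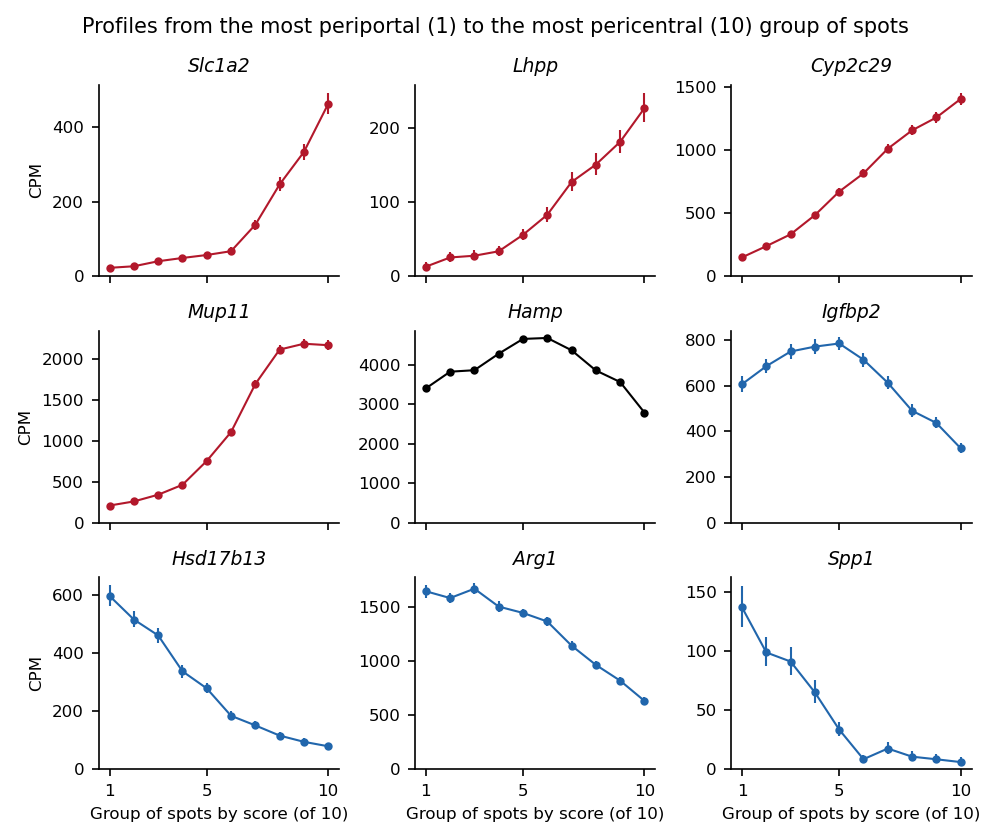
CPM (y axis) in 10 groups of scored spots ordered by zone score (x axis, 1 is most periportal and 10 most pericentral) for Slc1a2, Lhpp, Cyp2c29, Mup11, Hamp, Igfbp2, Hsd17b13, Arg1 and Spp1; bars are 95% counting intervals. Slc1a2 is low up to group 6 and reaches 461 CPM in group 10, while Hamp peaks in group 6 at 4680 CPM.

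A few genes were highest between the ends. Of the genes with 1000 or more UMIs, 15 were at least 1.2-fold higher in the middle 20% of spots than in either zone. Hamp, which encodes the iron hormone hepcidin, reached 4680 CPM in group 6 against 3402 CPM in group 1 and 2791 CPM in group 10. Of 13 iron handling genes, Hamp2 (-1.04), a second hepcidin gene, was past 1.5-fold in periportal spots, where 3.15% of all genes were. The iron transporter Slc11a2 (0.59) and the heme oxygenase Hmox1 (0.62) were past it in pericentral spots, where 11.4% were. Igfbp2 reached 784 CPM in group 5 against 606 and 326 CPM in the same end groups. The 10 genes with the highest ratio of the middle spots to the higher zone included Hamp but not Igfbp2. The others of these 10 were macrophage, blood and noncoding genes and Akap1. The macrophage genes Ctss, Mrc1 and Clec4f had ratios of the middle spots to the higher zone of 0.54, 0.41 and 0.34 on the log2 scale. The hemoglobin genes Hba-a2, Hba-a1 and Hbb-bt, carried by red blood cells, had 0.50, 0.38 and 0.48. They were highest in groups 4, 4 and 5, and Hba-a2 was at 2470 CPM in group 5 but 1044 CPM in group 6. The 5 richest spots held 6.97%, 6.32% and 7.32% of their UMIs. Gm42418, a noncoding gene that overlaps ribosomal RNA sequence, had 0.54 with 636 CPM in pericentral and 496 CPM in periportal spots, and was at 3970 CPM in the spots off the tissue. Gm29966 (0.33) and Akap1 (0.30), which anchors signaling enzymes at mitochondria, completed the 10. The middle spots also had the most UMIs per spot, and the part of depth in these values was not tested.

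Transcripts of vessel and other nonparenchymal cells were counted at low levels in both zones. In bulk spots, fewer cells of a type and less RNA per cell cannot be told apart. Of the central vein endothelium list, Rspo3, a Wnt pathway enhancer, had 91 UMIs in pericentral and 9 in periportal spots (3.10, 2.11 to 4.28), and Fabp4 325 and 98 (1.49). Below the gene minimum, the ligands Wnt2 and Wnt9b had 39 and 10, and 17 and 0 UMIs, the latter at least 4.81-fold higher in pericentral spots when 3 UMIs are taken for the 0. On the portal side, Efnb2, an arterial ephrin, had 0 and 11 UMIs, Adgrg6 4 and 19, and the Notch ligands Dll4 and Jag1 11 and 24, and 10 and 20. Of the 2 portal endothelium genes that reached the minimum, Ltbp4 was periportal (-0.90) and Vwf pericentral (0.84).

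Several genes of portal tract cells were higher in the periportal zone. The smooth muscle and matrix genes Mgp (14 and 138 UMIs, -3.54), Tagln (7 and 67, -3.49) and Acta2 (6 and 43, -3.08) were periportal, as was Gsn (-1.50), whereas the collagen gene Col1a2 was pericentral (50 and 25 UMIs, 0.76). Bile duct keratins were rare, with 0 and 11 UMIs of Krt19, 0 and 5 of Krt7, and 3 and 28 of Epcam. Of the 13 bile duct genes 3 reached the minimum, Spp1, Cldn3 (0.36) and Slc4a4 (0.61), and the latter was past 1.5-fold in pericentral spots. The median of the list was 0.36, while its summed level, 167 and 261 CPM (-0.64), was lower in pericentral spots, with 38 and 512 UMIs of Spp1. Ccl21a, a lymphatic chemokine, had 7 and 77 UMIs. Of 5 measured plasma and B cell genes, 4 were past 1.5-fold in pericentral spots, with a summed log2 ratio of 2.88 and a median of 3.45, but these values rested on few spots. Without the 5 richest spots of each zone Ighm was at 0.26 in place of 3.82 and Iglc1 at -0.08 in place of 4.56, and the median of the list was 0.35 without the 5% of scored spots richest in markers of other cell types. Of 17 sinusoidal endothelial, 14 Kupffer cell and macrophage and 8 stellate genes, 0, 1 and 2 were past 1.5-fold in pericentral spots. In periportal spots 1, 0 and 0 were, beside 11.4% pericentral and 3.15% periportal of all genes. Their medians were 0.12, 0.21 and 0.16, near that of all genes. The first of these was 0.00 without the abundant genes in the total. In the HFD section, 7, 7 and 4 of these genes were past 1.5-fold in pericentral spots. Their HFD medians were 0.54, 0.58 and 0.60, beside 0.13 for all genes, and this difference between the sections was not tested. Of 5 measured red blood cell genes, Hbb-bt (-0.59) was past 1.5-fold in periportal spots. The neutrophil gene S100a9 had 49 and 6 UMIs, and 1 of 13 T and NK cell genes reached the minimum. When the 105 scored spots richest in markers of muscle, bile duct, plasma or lymphatic cells were left out, of which 7 were pericentral and 34 periportal, 847 and 203 genes were past 1.5-fold, and their part in single ratios was not tested further.

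The HFD section gave the same side for most of these genes under the same rule. It had 707 spots in each zone, with a median of 18878 UMIs in pericentral and 27552 UMIs in periportal spots, the reverse order of the NCD section. Of the 777 pericentral genes of the NCD section, 684 were on the same side and 234 past 1.5-fold there, and 4 were past 1.5-fold on the opposite side. Of the 215 periportal genes, 172 were on the same side and 94 past 1.5-fold, and 2 were past it on the opposite side. The median HFD log2 ratio of all tested genes was 0.13, so the pericentral side was the more common one among all genes as well. The shares of all tested genes on each side and past 1.5-fold in HFD are not given here, so these counts stand without that background. Slc1a2 had a log2 ratio of 4.36 in HFD beside 3.95 in NCD, Lhpp 3.84 beside 3.31 and Cyp2c37 3.62 beside 3.34. Mup20 had -1.08 beside -1.91, Hsd17b13 -1.53 beside -2.65 and Serpina12 -1.04 beside -2.58. Hamp, with -0.18 in NCD, had -1.15 in HFD. Apoa4, periportal in NCD, was at 0.34 (0.32 to 0.35) in HFD, and Scd1 was at 0.57 beside -0.60. None of these differences between the sections was tested, since each diet had 1 mouse.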

How the data were processed

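The authors prepared 10x Visium libraries from 1 liver section per diet and ran Space Ranger 1.3.1 with the mouse build mm10, per the labels and the study's methods. They deposited its UMI counts for each gene in each spot, which were not normalized. The annotation behind the counts is not given in the sources used here. GENCODE M21 on GRCm38 gave the gene positions, and it held 32158 of the 32285 gene identifiers. Spot positions and images were not used here.

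Counts of the table of spots over tissue were scored and pooled as described above and given as CPM, or per 1000000 UMIs. Genes with at least 200 UMIs over the scored spots were compared. Poisson, conditional binomial and Clopper-Pearson intervals are exact at the 95% level. No test was run, as spots of 1 section are not replicates. Named genes are the 8 score genes, the 15 highest and the 15 lowest ratios among genes with at least 1000 UMIs that kept their direction when spots were drawn down to 3000 UMIs (seed 1), the 10 with the highest ratio of the middle 20% of spots to the higher zone, and members of 35 gene lists. Gene families, the genes picked for the profile and single-spot plots, and the promoters shown were chosen after their values were seen. The members and lists were chosen with earlier results of these data known. Promoter windows came from RefSeq. The method was tested on simulated data. The calculations ran in Python 3.11.15 with scipy 1.17.1 and numpy 2.4.6, and matplotlib 3.10.9 and pandas 2.3.3 served for plots and tables.

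Alternatives changed the UMI minimum, size of the end groups, score genes and weights, depth, weighting of spots, total behind the CPM, use of separate UMIs for score and readout, spots of the capture area, gene minimum and fold. Leaving out the spots richest in other cell types was added after seeing the data.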

Additional observations from a re-analysis of the deposited data

Results flagged for a closer look

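Among the leading genes and list members past 1.5-fold in the NCD section, 6 had a zone ratio of opposite sign in the HFD section, with counting intervals of both ratios clear of 0. None of these differences was tested. Apoa4 had a log2 ratio of pericentral to periportal CPM of 0.34 in HFD and -1.91 in NCD. Scd1 had 0.57 and -0.60, and Hbb-bt 1.45 and -0.59. Igfbp1 was at -0.63 in HFD and 1.00 in NCD, Saa2 at -0.82 and 0.95, and Saa4 at -0.17 and 0.60. Off the tissue of the NCD slide, 741 spots had 3000 or more UMIs. They entered the comparison of the zones only in the alternative that scored all 2848 such spots of the capture area.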

How the results depend on the processing

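Under 14 alternatives that changed the spots, score, depth or total, the 39 leading genes past 1.5-fold kept their side in every one. For the score genes, and for the depth of 3000 UMIs, their choice fixed this. Yet the log2 ratio of Iglc1 was 0.01 with end groups of 10%. The counts of 777 pericentral and 215 periportal genes past 1.5-fold moved more. End groups of 10% gave 1228 and 405, and those of 30% gave 512 pericentral genes. Spots drawn to 3000 UMIs gave 531 periportal genes, and the cause was not tested. CPM without the mitochondrial and 20 most abundant genes gave 467 pericentral genes, as every log2 ratio is then lower by the same amount. A fold of 2 gave 178 and 97, a gene minimum of 50 UMIs 1486 and 706, and one of 1000 UMIs 235 and 62, each by its own construction. The other alternatives stayed within 1.5 times, from 590 to 1164 pericentral and from 172 to 320 periportal genes. The medians of the lists for the urea cycle (-0.14 to 0.07), amino acid breakdown (-0.01 to 0.15), glycolysis and lipogenesis (-0.08 to 0.08), iron handling (-0.13 to 0.01), ribosomal proteins (-0.04 to 0.11) and portal endothelium (-0.50 to 0.34) lay on both sides of 0 over these alternatives, and that of the stellate cells fell to -0.00157. Genes with few UMIs, such as Axin2 and the bile duct keratins, are limited by depth. No paired analysis was possible because each diet has 1 section.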
